A study of Mus musculus with 8 samples.

Results

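T cells that carried 2 assembled alpha chains and 1 beta chain were described in single-cell TCR libraries of CD45+ immune cells sorted from the mouse brain 2 months after traumatic brain injury. A cell was a member when its barcode had exactly 2 contigs of the chain TRA and exactly 1 of the chain TRB. This gave 115 of 2986 cells with a receptor, in 99 clonotypes. The libraries were YTBI_Isotype with 15 of 262 cells, YTBI_aCD49d with 35 of 577, ATBI_Isotype with 23 of 1024 and ATBI_aCD49d with 42 of 1123. Every animal was a male C57BL/6 (B6) mouse with a controlled cortical impact, so all 4 groups were injured. YTBI stands for young mice of 13 to 15 weeks and ATBI for aged mice of 80 to 82 weeks at injury. The aCD49d groups received 300 µg of the antibody PS/2 against CD49d, the alpha 4 integrin that T cells use to enter tissue, 2 h after injury and then every 2 weeks. The Isotype groups received the antibody LTF-2 in the same way. Each group was 1 library made from 2 pooled mice, so there was no replicate and no test between groups, and differences between mice cannot be told apart from differences between groups. Intervals are 95% intervals of counting error, exact for a share and by Newcombe's method for a difference. They treat cells as independent, which cells of 1 clone are not.

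The alpha chain gene, Tra, joins 1 V segment to 1 J segment in developing thymocytes, with bases trimmed and added at the joint. A beta chain is fixed earlier, and once 1 Trb allele gives a working chain the other is mostly kept silent. Tra has no such strict exclusion. Both alleles rearrange at the same stage, and each can rearrange again, taking V segments farther upstream and J segments farther downstream, until the receptor is selected. A mature T cell can therefore hold a productive alpha from each allele beside a single beta. All descendants of that cell inherit both joints, so a pair of alphas seen in several cells of a clone is a lineage label.

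The label could be checked only on the receptor chains, since the transcriptomes were not analysed here and no CD4 or CD8 assignment was made. Every contig was listed as productive, full length and of high confidence. In 113 of 115 cells the nucleotides of the CDR3, the stretch that spans the joint, lay in the 2 alphas at least 10 edits apart, and in 1 more they lay 9 edits apart. In the remaining cell, ATBI_Isotype clonotype 223, both alphas had the V segment TRAV4D-4, the J segment TRAJ12 and the same CDR3. One of them, with 2 UMIs (unique molecular identifiers, which tag single RNA molecules), ran through the end of TRAJ12, whereas the other, with 1 UMI, left TRAJ12 early and its last 10 bases were the first bases of the constant gene Trac. This ending was also found in 1 cell with a single alpha among the 49 TRAJ12 contigs. The cell of clonotype 223 thus showed 1 joint with 2 ends, and it is kept in the counts because the rule takes it. The barcodes of the members occurred in 1 library only, although 1 barcode of another cell was shared by more than 1 library.

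The CDR3 sequences of the 8 clonotypes in which at least 2 cells showed both alphas are given first, because these pairs were seen in more than 1 cell. Each is read 5′ to 3′ from the deposited contigs, with the bases that match neither the V nor the J germline of GRCm38 in capitals. In beta chains the capitals include bases of a D segment. The contigs with TRBV10 did not match the germline record, so that beta is in lower case throughout. The largest such clonotype was found in ATBI_aCD49d.
ATBI_aCD49d clonotype 7, TRAV11 with TRAJ17: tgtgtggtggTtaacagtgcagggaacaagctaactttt
ATBI_aCD49d clonotype 7, TRAV14D-1 with TRAJ6: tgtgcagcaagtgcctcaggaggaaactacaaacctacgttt
ATBI_aCD49d clonotype 7, beta, TRBV12-1 with TRBJ1-1: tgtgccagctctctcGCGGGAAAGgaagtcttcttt

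Neither alpha of this clonotype is the invariant TRAV11 with TRAJ18 chain of NKT cells, since its TRAV11 joined TRAJ17. It had 18 cells, of which 9 showed both alphas, 2 showed the TRAV11 chain alone and 7 the TRAV14D-1 chain alone. The 2 joints held 1 and 0 bases outside the germline. Among the 9 cells with both, TRAV14D-1 had more UMIs in 5, TRAV11 had more in 3 and the chains were equal in 1. The higher chain had 10, 8, 7, 7, 5, 5, 5, 4 and 2 UMIs, against 7, 6, 2, 2, 4, 3, 3, 3 and 2 for the lower chain of the same cells. Which chain led therefore differed from cell to cell within 1 clone.

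The other clonotypes with a repeated pair in the aged brain came from both treatments. The pairs of ATBI_aCD49d clonotypes 44 and 63 were each seen in 2 of 2 cells.
ATBI_aCD49d clonotype 44, TRAV12-2 with TRAJ35: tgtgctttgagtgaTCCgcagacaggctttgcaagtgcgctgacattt
ATBI_aCD49d clonotype 44, TRAV6-4 with TRAJ45: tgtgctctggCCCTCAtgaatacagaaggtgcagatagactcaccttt
ATBI_aCD49d clonotype 44, beta, TRBV5 with TRBJ1-1: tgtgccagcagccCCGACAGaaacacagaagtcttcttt
ATBI_aCD49d clonotype 63, TRAV16N with TRAJ15: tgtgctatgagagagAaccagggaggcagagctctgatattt
ATBI_aCD49d clonotype 63, TRAV5D-4 with TRAJ6: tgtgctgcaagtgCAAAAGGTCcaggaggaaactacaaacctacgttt
ATBI_aCD49d clonotype 63, beta, TRBV15 with TRBJ1-3: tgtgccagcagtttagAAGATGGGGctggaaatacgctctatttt
ATBI_Isotype clonotype 30, TRAV15-1-DV6-1 with TRAJ23: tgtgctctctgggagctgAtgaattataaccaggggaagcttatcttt
ATBI_Isotype clonotype 30, TRAV13-1 with TRAJ22: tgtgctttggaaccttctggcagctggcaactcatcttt
ATBI_Isotype clonotype 30, beta, TRBV10 with TRBJ2-1: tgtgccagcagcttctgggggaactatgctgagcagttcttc
ATBI_Isotype clonotype 46, TRAV6N-7 with TRAJ5: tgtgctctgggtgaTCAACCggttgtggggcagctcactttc
ATBI_Isotype clonotype 46, TRAV7-3 with TRAJ27: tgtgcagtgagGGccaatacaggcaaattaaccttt
ATBI_Isotype clonotype 46, beta, TRBV31 with TRBJ1-4: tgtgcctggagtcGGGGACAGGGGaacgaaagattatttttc

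Clonotype 30 of ATBI_Isotype held the closest J segments of these clones, TRAJ23 and TRAJ22, which are neighbours on the locus, and 2 of its 3 cells showed both alphas. In 1 of these cells the TRAV15-1-DV6-1 chain had 3 UMIs and the TRAV13-1 chain 1. In the other, the TRAV13-1 chain had 2 UMIs and the TRAV15-1-DV6-1 chain 1. Clonotype 46 held the farthest, TRAJ5 and TRAJ27, which lie 21 segments apart, and both of its cells showed both chains. The number of bases outside the germline ran from 0 to 9 in the 8 alphas printed here, with the 9 in the TRAV5D-4 chain of clonotype 63.

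The young brain gave 3 clonotypes with a repeated pair.
YTBI_Isotype clonotype 2, TRAV14D-3-DV8 with TRAJ26: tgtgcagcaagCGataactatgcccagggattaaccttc
YTBI_Isotype clonotype 2, TRAV6-5 with TRAJ39: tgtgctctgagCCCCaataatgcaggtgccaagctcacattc
YTBI_Isotype clonotype 2, beta, TRBV5 with TRBJ2-1: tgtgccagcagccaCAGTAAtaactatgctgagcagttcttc
YTBI_aCD49d clonotype 10, TRAV14-3 with TRAJ37: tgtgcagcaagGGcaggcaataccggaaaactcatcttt
YTBI_aCD49d clonotype 10, TRAV6-7-DV9 with TRAJ52: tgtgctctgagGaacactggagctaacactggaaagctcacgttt
YTBI_aCD49d clonotype 10, beta, TRBV3 with TRBJ1-3: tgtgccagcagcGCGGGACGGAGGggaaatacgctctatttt
YTBI_aCD49d clonotype 39, TRAV13-1 with TRAJ40: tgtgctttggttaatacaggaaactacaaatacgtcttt
YTBI_aCD49d clonotype 39, TRAV13-1 with TRAJ23: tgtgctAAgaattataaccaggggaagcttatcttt
YTBI_aCD49d clonotype 39, beta, TRBV12-2+TRBV13-2 with TRBJ1-1: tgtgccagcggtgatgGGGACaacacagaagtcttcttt

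In YTBI_Isotype clonotype 2, 3 of 4 cells showed both alphas and the fourth showed the TRAV14D-3-DV8 chain alone. The UMIs of TRAV14D-3-DV8 and TRAV6-5 were 8 and 4 in the first of these cells, 5 and 8 in the next and 3 and 2 in the last. In YTBI_aCD49d clonotype 10, 2 of 4 cells showed both and 2 showed the TRAV14-3 chain alone. Clonotype 39 of the same library used TRAV13-1 in both alphas, with TRAJ40 in one and TRAJ23 in the other, and both of its cells showed both. Its V segments were the same and its joints were not, so the V gene alone would not have told these chains apart.

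Cells with 2 alphas were then counted against all cells that had 1 beta and at least 1 alpha, the cells in which a second alpha could be seen. They made up 15 of 197 such cells in YTBI_Isotype, or 7.61% (95% interval 4.32 to 12.2). In YTBI_aCD49d the share was 8.06% (5.68 to 11.0), 35 of 434 cells. In ATBI_Isotype it was 3.48% (2.22 to 5.18), 23 of 660 cells, and in ATBI_aCD49d it was 4.70% (3.41 to 6.30), 42 of 894 cells. Both young libraries lay above both aged libraries. The difference between the Isotype libraries was 4.13 percentage points (0.427 to 8.93), and that between the aCD49d libraries was 3.37 points (0.496 to 6.61). Between treatments the differences were smaller than their counting error. ATBI_aCD49d was 1.21 points above ATBI_Isotype (-0.92 to 3.25), and YTBI_aCD49d was 0.450 points above YTBI_Isotype (-4.76 to 4.89).

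The gap between ages was narrower when every clonotype was counted once. Clonotypes with at least 1 such cell were 13 of 174 in YTBI_Isotype (7.47%, 4.04 to 12.4), 33 of 361 in YTBI_aCD49d (9.14%, 6.38 to 12.6), 21 of 323 in ATBI_Isotype (6.50%, 4.07 to 9.77) and 32 of 438 in ATBI_aCD49d (7.31%, 5.05 to 10.2). Young minus aged was then 0.970 points under Isotype (-3.77 to 6.50) and 1.84 points under aCD49d (-2.14 to 5.96), and both intervals include 0. The order of the 4 libraries was the same in cells and in clonotypes, with YTBI_aCD49d highest and ATBI_Isotype lowest.

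**Figure D1:**
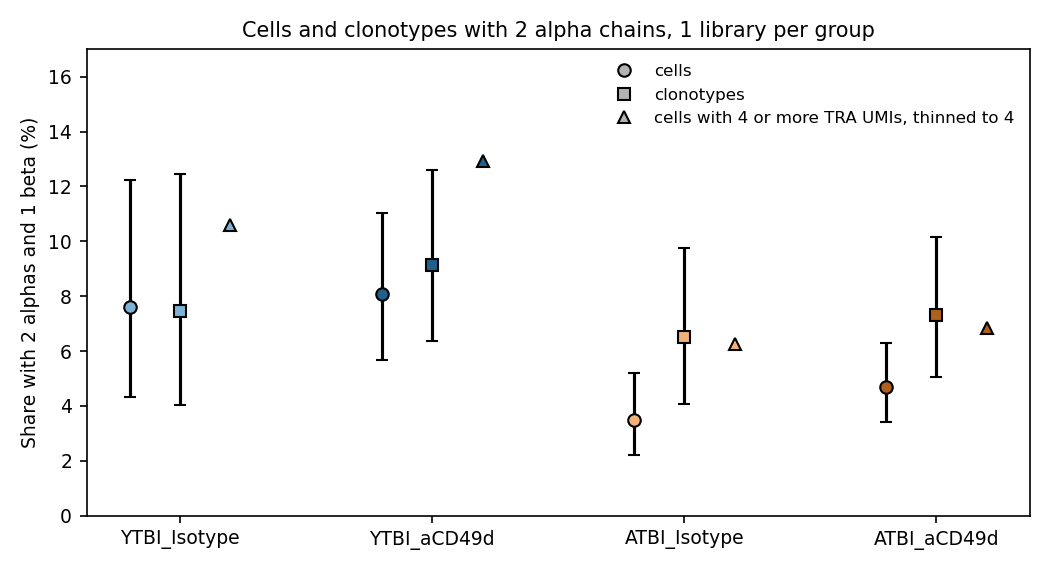
Share with 2 alphas and 1 beta, in percent, for each library (x axis), as circles for cells and squares for clonotypes with exact 95% intervals of counting error, and as triangles for cells thinned to 4 TRA UMIs, with no interval. Cells of the young libraries lie at 7.61% and 8.06% and those of the aged at 3.48% and 4.70%, while the squares span only 6.50% to 9.14%.

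The share of cells with 2 alphas was next given by clone size. Among cells alone in their clonotype it was 11 of 158 in YTBI_Isotype (6.96%) and 27 of 323 in YTBI_aCD49d (8.36%), and in clonotypes of 2 to 9 cells it was 4 of 39 (10.3%) and 8 of 84 (9.52%). YTBI_Isotype had no clonotype of 10 or more cells with an alpha and 1 beta, and YTBI_aCD49d had 0 members of 27 cells there. Were the cells independent, that would allow a share of up to 11.1%. They came from 2 clonotypes, and 0 of 2 has an exact upper limit of 84.2%. In ATBI_Isotype, 15 of 244 cells that were alone in their clonotype had 2 alphas (6.15%), as had 8 of 153 cells in clonotypes of 2 to 9 cells (5.23%). In clonotypes of 10 or more cells it was 0 of 263. Independent cells would allow a share of up to 1.14%, but 0 of 9 clonotypes has an exact upper limit of 33.6%. In ATBI_aCD49d the corresponding counts were 26 of 360 (7.22%), 7 of 185 (3.78%) and 9 of 349 (2.58%), and those 9 were the cells of clonotype 7. Counted per clonotype, ATBI_Isotype gave 6.15%, 6 of 70 (8.57%) and 0 of 9, and ATBI_aCD49d gave 7.22%, 5 of 68 (7.35%) and 1 of 10, so the low shares of cells in large clones rest on 9 and 10 clonotypes. Over the 4 libraries, 79 of 1085 single-cell clonotypes, 19 of 190 clonotypes of 2 to 9 cells (10.0%, 6.13 to 15.2) and 1 of 21 clonotypes of 10 or more cells (4.76%, 0.120 to 23.8) held such a cell. A clonotype with more cells has more chances to show a pair, and 21 large clonotypes are too few to place their share against that of the others.

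The share of members in clonotypes of at least 2 cells, called clonal here, was 26.7% in YTBI_Isotype (4 of 15 cells, 7.79 to 55.1) and 22.9% in YTBI_aCD49d (8 of 35, 10.4 to 40.1). It was 34.8% in ATBI_Isotype (8 of 23, 16.4 to 57.3) and 38.1% in ATBI_aCD49d (16 of 42, 23.6 to 54.4). Among cells with 1 alpha and 1 beta the clonal share was 19.2%, 25.8%, 64.1% and 60.8% in the same order. Those cells include clone mates of members that showed a single alpha, and such mates are clonal by definition. Members minus cells with 1 alpha was -29.3 points in ATBI_Isotype (interval -48.1 to -6.46) and -22.7 points in ATBI_aCD49d (-37.6 to -6.09). For the young, YTBI_Isotype gave 7.44 points (-12.5 to 36.4) and YTBI_aCD49d -2.96 points (-16.2 to 14.8), within counting error. Over the 4 libraries the mean difference was -11.9 points, with the members lower in 3 of 4 (exact two-sided sign-flip permutation test over libraries, p = 0.375, where the smallest p it can give is 0.13). With both alphas at 2 or more UMIs, members were lower in 2 of 4 libraries and YTBI_aCD49d gave 0.85 points. The clonal share of members in ATBI_Isotype was then 20% (3 of 15). This minimum was set for members only, and the cells with 1 alpha were not filtered.

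This difference depended on counting cells. With 1 count per clonotype, an alternative chosen after the values were seen, clonotypes with a member had at least 2 cells in 2 of 13 in YTBI_Isotype (15.4%), 6 of 33 in YTBI_aCD49d (18.2%), 6 of 21 in ATBI_Isotype (28.6%) and 6 of 32 in ATBI_aCD49d (18.8%). Other clonotypes with an alpha and a beta did so in 8.70%, 9.76%, 24.2% and 17.7%. The difference then had a mean of 5.13 points and was positive in all 4 libraries. A clonotype with more cells has more chances to show a pair, and this count does not correct for that. How far it sets the difference was not tested, and no test of the difference is given. In the aged the difference was 4.40 points in ATBI_Isotype (-13.7 to 28.5) and 1.02 points in ATBI_aCD49d (-11.2 to 19.1), both within counting error. Single clones weighed on the count of cells as well. Without the clonotype with most members in each library, also chosen after the values were seen, the clonal share of members was 8.33% in YTBI_Isotype (1 of 12) and 21.2% in ATBI_aCD49d (7 of 33). The difference was then -10.5 points in YTBI_Isotype and -39.2 points in ATBI_aCD49d, members were lower in 4 of 4 libraries, and the mean difference was -23.1 points (exact p = 0.13). Counts of cells and of clonotypes thus gave no common direction.

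**Figure D2:**
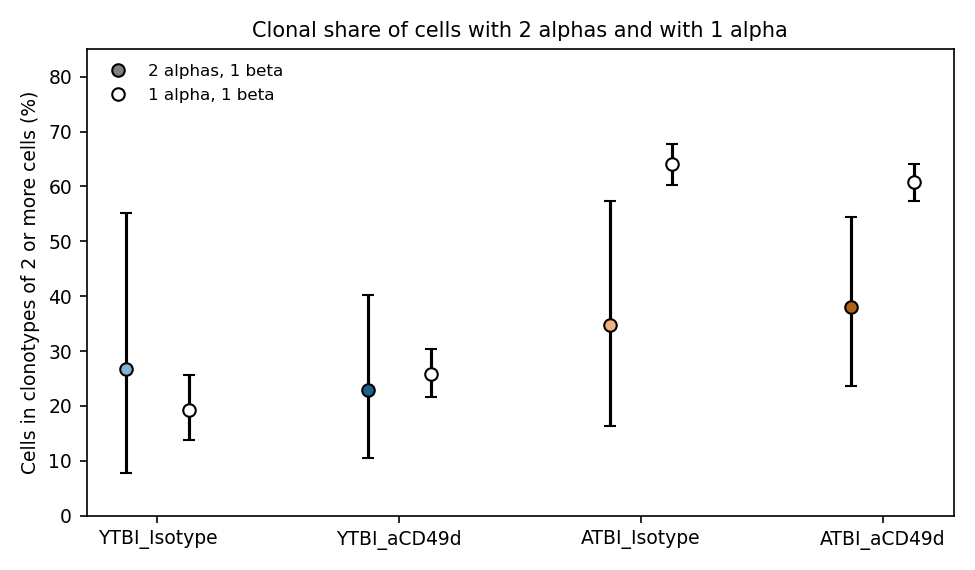
Cells in clonotypes of 2 or more cells, in percent, for each library, with filled circles for cells with 2 alphas and open circles for cells with 1 alpha and 1 beta, and exact 95% intervals of counting error. The circles count cells, and lie at 34.8% against 64.1% in ATBI_Isotype and at 38.1% against 60.8% in ATBI_aCD49d, whereas counted per clonotype these gaps were not seen (28.6% against 24.2% and 18.8% against 17.7%).

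The chains behind a member were shallow, and the libraries differed in depth. The leading alpha was the one with more UMIs or, at a tie, more reads. It had a median of 6, 5, 3 and 6 UMIs in YTBI_Isotype, YTBI_aCD49d, ATBI_Isotype and ATBI_aCD49d, and the second alpha a median of 4, 3, 2 and 3. The second alpha rested on 1 UMI in 16 of 115 cells, of which 8 were in ATBI_Isotype and 1 in ATBI_aCD49d. With both alphas at 2 or more UMIs required, ATBI_aCD49d lay above ATBI_Isotype by 2.31 points (0.384 to 4.18), an interval that takes cells as independent, although 9 of the 41 cells of ATBI_aCD49d belonged to clonotype 7. An alpha was recovered in 81.4%, 77.6%, 66.5% and 82.8% of the cells with 1 beta, in that order, so ATBI_Isotype had both the lowest recovery and the lowest share of members. When each cell with at least 4 TRA UMIs was thinned to 4, the expected share was 10.6%, 12.9%, 6.26% and 6.83%, against 11.7%, 14.0%, 6.78% and 7.78% unthinned in the same cells. This left out 77, 220, 424 and 367 shallower cells. The cut sums the UMIs of both alphas, so cells with 2 alphas pass it more easily. It kept 14 of 15, 30 of 35, 16 of 23 and 41 of 42 members. All cells kept were 120 of 197, 214 of 434, 236 of 660 and 527 of 894. Both young libraries lay above both aged ones, but a cut that favours members cannot show whether that order is free of depth.

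The beta chain gives a measure of depth that the rule did not use. Members had a median of 13, 9, 8 and 10 beta UMIs and cells with 1 alpha 11, 9, 7 and 10, in the order of libraries above. The members were higher in 2 libraries and equal in 2 (mean difference 0.750 UMIs, exact two-sided sign-flip permutation test over libraries, p = 0.50). By the mean of log2 UMIs they were higher in 4 of 4 libraries, by a mean of 0.08 (exact p = 0.13, the smallest the test can give). Over all libraries, members made up 11 of 392 cells with 1 to 4 beta UMIs (2.81%), 50 of 779 cells with 5 to 9 (6.42%) and 54 of 1014 cells with 10 or more (5.33%). The share was lowest at 1 to 4 beta UMIs in each library too, at 5.88% (1 of 17 cells), 3.41% (3 of 88), 2.67% (5 of 187) and 2.0% (2 of 100). The intervals of these shares were 0.149 to 28.7, 0.709 to 9.64, 0.874 to 6.13 and 0.243 to 7.04. Only that of YTBI_aCD49d left out the share of the same library at 5 to 9. From 5 to 9 up to 10 or more beta UMIs it went from 7.69% to 7.83% in YTBI_Isotype and from 3.64% to 4.04% in ATBI_Isotype, but from 11.9% to 7.39% in YTBI_aCD49d and from 6.08% to 4.42% in ATBI_aCD49d. The steps from 5 to 9 up to 10 or more lay within the intervals of the shares.

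The UMIs of both alphas were compared within each member. The rule admits a cell only when both chains were captured, so a very unequal pair would show a single chain at this depth and is not among the members, which limits the ratios that can be seen. The UMIs of the leading alpha over those of the second ranged from 1 to 5. The median was 1.71 in ATBI_aCD49d, 1.6 in YTBI_Isotype and 1.5 in each of the other libraries. The ratio was at most 2 in 88 of 115 cells (76.5%), was 1 in 17 and exceeded 3 in 8, of which 6 were in ATBI_aCD49d. The most unequal pair was in ATBI_Isotype clonotype 383, with 15 UMIs for TRAV14N-3 with TRAJ23 and 3 for TRAV7N-4 with TRAJ6. The deepest pair was in YTBI_Isotype clonotype 38, with 30 UMIs for TRAV4-4-DV10 with TRAJ34 and 12 for TRAV16 with TRAJ40, beside 29 for its TRBV5 beta. Counted in reads, the order of the 2 alphas was the other way round in 17 cells, so the words leading and second say little about expression at this depth.

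**Figure D3:**
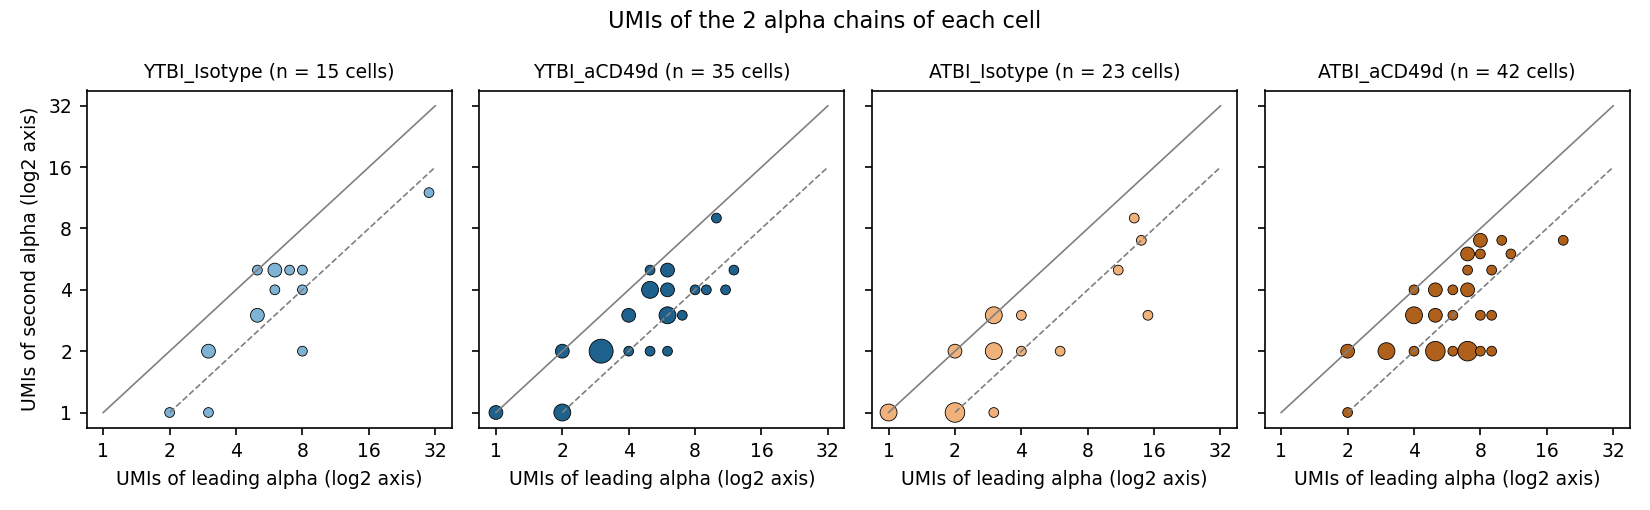
UMIs of the leading alpha (x axis, log2) against UMIs of the second alpha (y axis, log2) for each cell, in 4 panels by library, with larger points for several cells at 1 position, a solid line at equal UMIs and a dashed line at a ratio of 2. Points fill the band between the lines in every library, with 76.5% of the 115 cells on or above the dashed line, and many points lie at 1 to 3 UMIs.

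The distance between the J segments of the 2 alphas along Tra was then measured. The annotation places 60 TRAJ segments on chromosome 14 of GRCm38 (GENCODE vM21), and their order was counted from 1 at the V side to 60 at the side of the constant gene. With each clonotype counted once, the 2 J segments were a median of 7 positions apart, with a range of 0 to 34, and were within 10 positions in 70 of 99 clonotypes (70.7%). In base pairs the median distance was 8266. The median was 6, 7, 7 and 10 positions in YTBI_Isotype, YTBI_aCD49d, ATBI_Isotype and ATBI_aCD49d. Counted by cell it was 9, a value that includes the 9 cells of ATBI_aCD49d clonotype 7, whose TRAJ17 and TRAJ6 lie 10 positions apart. For comparison, the leading alphas of different clonotypes within a library were a median of 12 positions apart over 1312 pairs, and 11, 13, 11 and 12 in the 4 libraries. The gap between the medians was thus smallest in ATBI_aCD49d, at 10 against 12.

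The J order of the second alpha followed that of the leading alpha. Pearson's r was 0.66 and Spearman's rho 0.62 over 99 clonotypes, and r was 0.79, 0.68, 0.62 and 0.64 in the 4 libraries with 13, 33, 21 and 32 clonotypes. Spearman's rho was 0.72, 0.59, 0.41 and 0.64 in the same libraries, lowest in ATBI_Isotype. These values describe clonotypes that share libraries and segment use, and no p-value is given. For the V order of the 2 alphas, r was 0.11 over all clonotypes and 0.06, 0.20, 0.32 and 0.07 in the 4 libraries. In ATBI_Isotype, rho was 0.38 for V order, close to its 0.41 for J order. Within a single alpha, V segments nearer to the J cluster went with J segments nearer to the V cluster. The r between V and J order was -0.28 for leading and -0.54 for second alphas. It was -0.16 and -0.73 in YTBI_Isotype, -0.31 and -0.66 in YTBI_aCD49d and -0.09 and -0.51 in ATBI_Isotype. In ATBI_aCD49d it was -0.45 and -0.40, without that contrast. Across the 2 alphas, r was -0.22 between the V of the leading and the J of the second chain, and -0.48 between the V of the second and the J of the leading chain. In ATBI_Isotype these were -0.41 and -0.39. The farthest pair was TRAJ49 with TRAJ15, 34 positions apart, in YTBI_aCD49d clonotype 289, which rested on 2 and 1 UMIs. In 4 clonotypes both alphas were listed with the same J segment. This count includes clonotype 223 of ATBI_Isotype, which showed 1 joint and so is no pair of rearrangements. That clonotype is also in the distances and the values of r and rho above.

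**Figure D4:**
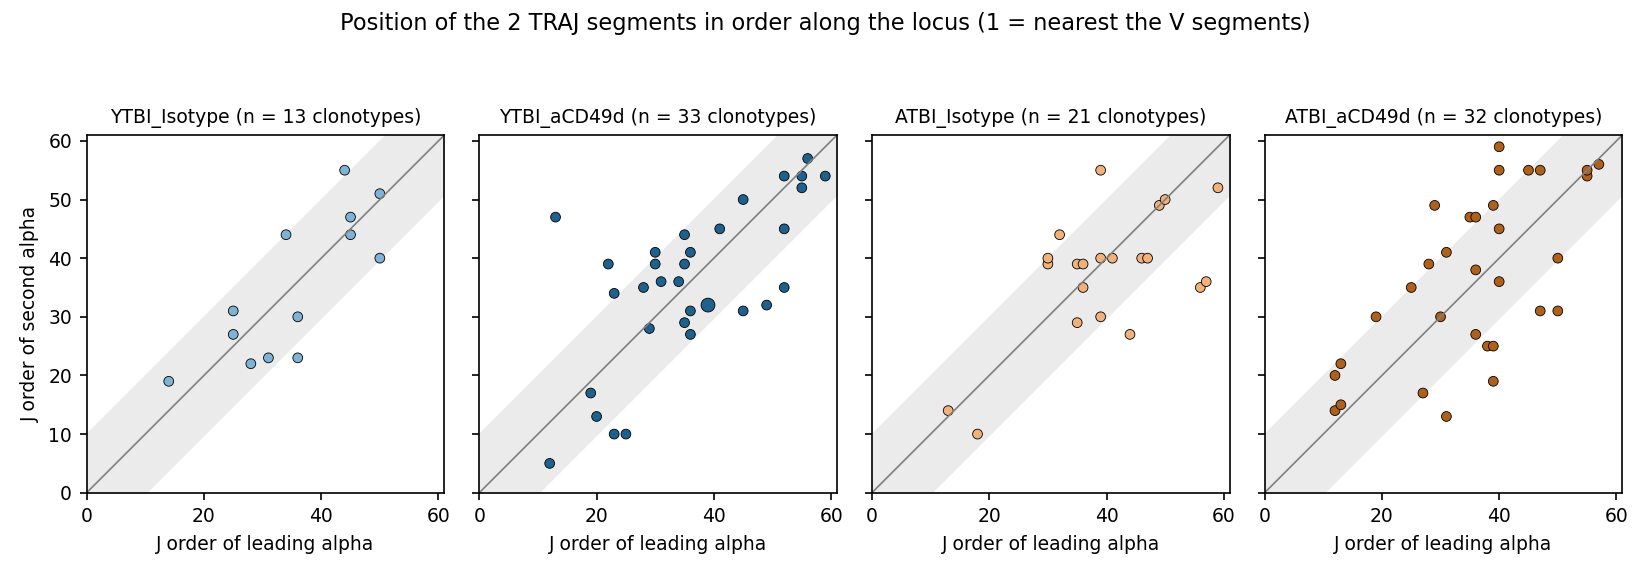
Order along the locus of the TRAJ segment of the leading alpha (x axis) and of the second alpha (y axis), 1 point per clonotype (larger where 2 clonotypes coincide), in 4 panels by library, with a line at equal order and a grey band of 10 positions on either side. In all, 70 of 99 clonotypes lie in or at the edge of the band, and the clonotype at a distance of 34 is the point at the upper left of YTBI_aCD49d.

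Segment use was counted once per clonotype and distinct CDR3. The count took 197 alphas of members and 1215 alphas of cells with 1 alpha and 1 beta, called the others. Clone mates of members that showed a single alpha count among the others. Chains of such clones, as both alphas of ATBI_aCD49d clonotype 7, are therefore in both sets. The most frequent J segments of the members all lay at order 35 or later, toward the constant gene. TRAJ23 (chr14:54196081-54196140, plus strand) made up 7.61% of member alphas (15 of 197) and 4.12% of the others. TRAJ26 (chr14:54194490-54194549) made up 7.11% and 3.87%, TRAJ22 (chr14:54197248-54197307) 5.58% and 7.08%, and TRAJ27 (chr14:54192303-54192361) 5.58% and 3.05%. TRAJ6 (chr14:54212688-54212749) made up 5.08% (10 of 197) and 1.40% (17 of 1215), and its member alphas were 1, 2, 1 and 6 in the 4 libraries. The first 20 J segments on the V side gave 13.2% of member alphas and 20.7% of the others. The median J order was 36 and 35. These segments were named for their frequency in the members, so the differences are a description and were not tested.

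Among V segments, TRAV12D-2 (chr14:52915799-52916426) and TRAV14N-3 (chr14:53370077-53370575) each gave 8 member alphas (4.06%), against 3.05% and 0.988% of the others. TRAV10, TRAV3D-3 and TRAV4D-4 gave 7 each (3.55%), as did TRAV9D-3, which tied with the last of them. Many mouse TRAV segments have near-identical copies, marked D or N in their names, so these calls are less certain than subgroup totals. By subgroup, TRAV6 and TRAV7 led with 26 alphas each (13.2%), against 11.2% and 11.7% of the others, and TRAV14 followed with 21 (10.7%, against 8.81%). TRAV11 gave 5 member alphas (2.54%) against 8.81% of the others, and TRAJ18 gave 6 (3.05%) against 10.0%, which are the segments of the invariant NKT chain. The 2 alphas of a clonotype shared the subgroup in 8 of 99 clonotypes and the V segment in 3, with clonotype 223 of ATBI_Isotype in both counts. In the beta chains, TRBV5 was the most frequent V segment of members, in 11 of 99 clonotypes (11.1%, 5.68 to 19.0). It made up 5.85% (4.60 to 7.33) of the beta chains of cells with 1 alpha, clone mates of members included. The joints of member alphas held a mean of 2.81 ± 2.21 (SD, n = 197) bases outside the germline, and those of the others 2.50 ± 2.09 (SD, n = 1214). Joints with no such base made up 13.7% of member alphas and 19.5% of the others. The gap was absent in ATBI_Isotype, at 19.5% and 19.2%. It was 7.69% and 20.25% in YTBI_Isotype, 13.6% and 18.4% in YTBI_aCD49d, and 12.5% and 20.4% in ATBI_aCD49d. Without the invariant chain, 4 of 197 and 105 of 1215 alphas, the means were 2.86 ± 2.20 (SD, n = 193) and 2.69 ± 2.08 (SD, n = 1109), and joints with no such base made up 12.95% and 15.5%. The first 20 J segments then gave 13.5% and 22.7%, and TRAJ6 5.18% and 1.53%. This alternative was chosen after the values were seen.

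The invariant alpha of NKT cells, TRAV11 joined to TRAJ18, was found in 4 members, 2 in YTBI_Isotype and 2 in ATBI_Isotype. It was the second alpha in 3 of them. In 1 of these, ATBI_Isotype clonotype 398, the chains were tied at 2 UMIs and reads set the order (4110 against 8843). In YTBI_Isotype clonotype 196 reads gave the other order, 5807 for the invariant chain on 1 UMI against 3036 for its partner on 2. Each of the 4 members had a beta listed as TRBV13-2 or as TRBV12-2+TRBV13-2, and TRBV13-2 is a segment that invariant NKT receptors often use. The partner alphas were TRAV13N-3 with TRAJ28, TRAV4D-3 with TRAJ17, TRAV3D-3 with TRAJ35 and TRAV15D-1-DV6D-1 with TRAJ30, all different. Of 116 cells with the invariant alpha, 106 had it as the only alpha beside 1 beta. The invariant alpha of MAIT cells, TRAV1 with TRAJ33, was found in 0 of 115 members, which allows a share of up to 2.61%.

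Few member alphas were seen outside their clone. Neither alpha CDR3 occurred in another clonotype of the library in 110 of 115 cells. Of the 5 exceptions, 4 were the invariant TRAV11 cells, and the other was the TRAV4D-4 chain of YTBI_aCD49d clonotype 20, found in 1 cell of another clonotype. In 8 members an alpha CDR3 recurred in another library, 4 of them again through the invariant chain. A TRAV3D-3 chain with TRAJ22 and no base outside the germline is shown because the same nucleotides were the second alpha of members in both aged libraries, ATBI_Isotype clonotype 239 and ATBI_aCD49d clonotype 424, beside different leading alphas and betas.
TRAV3D-3 with TRAJ22: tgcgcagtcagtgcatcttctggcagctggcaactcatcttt

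Clone mates showed how often both chains were seen again in another cell of the clonotype. In 20 clonotypes with at least 2 cells and at least 1 member there were 66 cells, and setting aside 1 member of each left 46 mates. Both alphas were found in 16 mates (34.8%, 21.4 to 50.3), 1 of the pair in 29, an alpha outside the pair in 0 and no alpha in 1. The deposited clonotypes were built from shared chains, so a mate with a different alpha would be placed in another clonotype and the 0 is no finding. By library, both were found in 2 of 4 mates in YTBI_Isotype, 2 of 8 in YTBI_aCD49d, 2 of 12 in ATBI_Isotype and 10 of 22 in ATBI_aCD49d. Without the clonotype with most members in each library, it was 4 of 21 mates (19.0%). In either count most mates did not show both chains of the pair. Whether a chain not seen was absent or not captured was not tested.

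Every cell showed both alphas in 4 of these clonotypes, and each of the alphas was also seen alone in another cell in 2. One of the latter is clonotype 7 of ATBI_aCD49d. The other is ATBI_Isotype clonotype 14, in which both alphas used TRAJ13, 1 of 5 cells showed both with 1 UMI each, 1 showed TRAV12D-2 alone and 3 showed TRAV4D-3 alone. YTBI_Isotype clonotype 15 and YTBI_aCD49d clonotype 20 had 2 cells each, 1 with both alphas and 1 with a single alpha of the pair. In the deposited clonotype tables, 13, 33, 21 and 31 clonotypes were listed with 2 alphas and 1 beta, and all of them held a member. The remaining clonotype with members, ATBI_aCD49d clonotype 63, was listed with 3 alphas, of which 2 had the same CDR3.

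**Figure D5:**
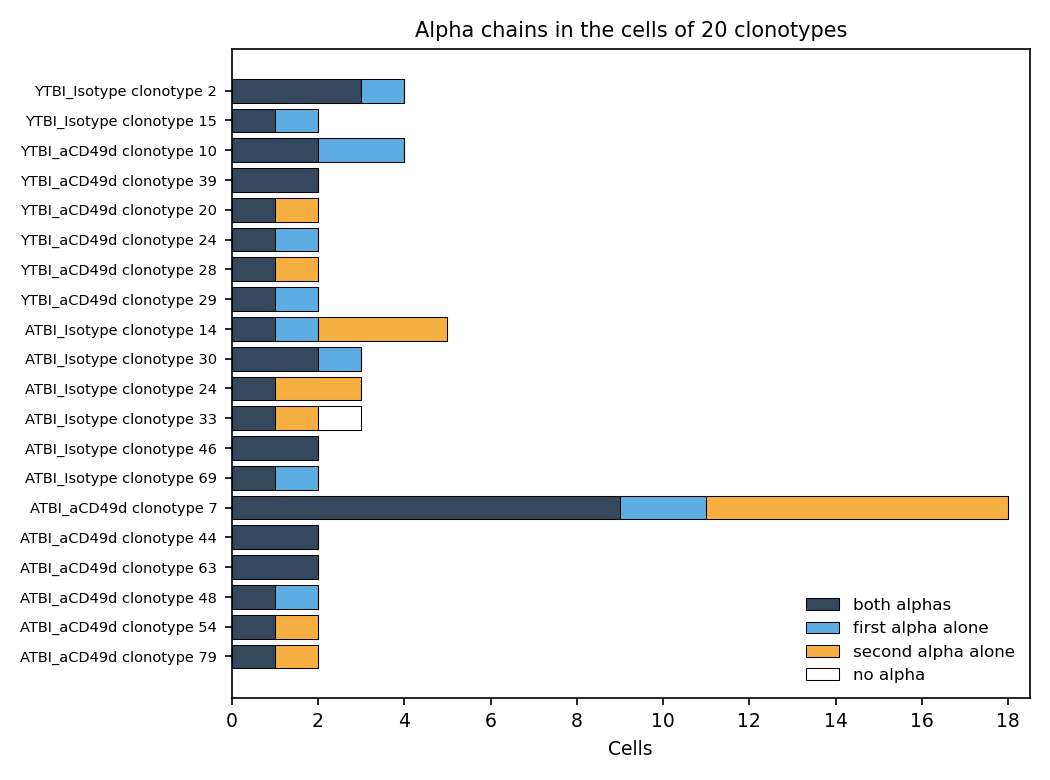
Cells (x axis) of the 20 clonotypes with at least 2 cells and a member (y axis, by library and clonotype number), split into cells with both alphas, with the first or the second alpha of the pair alone, and with no alpha, where the first alpha is the one with more UMIs (at a tie, more reads) in the first member of the clonotype. The bar of ATBI_aCD49d clonotype 7 has 9 cells with both, 2 with TRAV11 alone and 7 with TRAV14D-1 alone, and every other bar has 5 cells or fewer.

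Cells with more than 1 beta give a view of barcodes that could hold more than 1 cell. Among cells with a beta, 10 of 252, 3 of 562, 12 of 1004 and 22 of 1102 had 2 betas in the order of libraries above (3.97%, 0.534%, 1.20% and 2.0%). YTBI_aCD49d had the lowest share of 2-beta cells and the highest share of members, whereas the other 3 libraries fell in the same order by both shares. The 6 cells with 2 alphas and 2 betas had their J segments a median of 11 positions apart, with a range of 4 to 43. No cell had 3 or more alphas, and none had 2 alphas without a beta. No doublet caller was run, and the part of doublets or of free RNA in the members was not tested.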

How the data were processed

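Brain CD45+ cells of 4 groups, each a pool of 2 mice, were sequenced with 10x Genomics immune profiling, 1 library per group. The authors assembled TCR contigs against mm10 with Cell Ranger (version 7.2.0 in the submitters' processing notes) and deposited, as counts, the UMIs and reads of each chain, and for each clonotype the count of cells and their fraction of the library. Libraries held 4473 to 18415 UMIs. The authors' later step of keeping receptors of transcriptome-defined T cells was not repeated.

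Members and lists were chosen with earlier results of these data known. Clones named were the 3 with most members per library and all with at least 3, segments named were the 5 most frequent TRAV and TRAJ, and exceptions were chosen after their values were seen. Segment positions came from GENCODE vM21 on GRCm38. Shares have exact Clopper-Pearson and differences Newcombe 95% intervals, for counting error only, with a limit of 3 counts where a count was 0. Differences over libraries had an exact two-sided sign-flip permutation test. Thinning was computed exactly and tested on simulated data. Alternatives changed the denominator, the clonotype definition, UMI minimums (2 per alpha, 5 per beta), the depth and the cells included. Python 3.11.15, pandas 2.3.3, scipy 1.17.1 and matplotlib 3.10.9 were used.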

Additional observations from a re-analysis of the deposited data

Results flagged for a closer look

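With 1 library per group, no sample could be compared with others of its group. In all, 3 measures moved in opposite directions between aCD49d and isotype in the young and in the aged libraries, and none of these differences between ages was tested. The clonal share of cells with 2 alphas differed by -3.81 points in the young and by 3.31 points in the aged. Both signs turned without the clonotype with most members in each library, to 9.85 points in the young and -7.36 points in the aged, and the aged difference was -0.31 points when at least 3 cells were required and 16.6 points with both alphas at 2 or more UMIs. The share of clone mates with both alphas differed by -25.0 points in the young and by 28.8 points in the aged, over 4, 8, 12 and 22 mates. Without the clonotype with most members in each library the young difference was 20 points, from 1 of 5 mates and 0 of 1. The aged difference was then 30.0 points, from 2 of 5 mates and 1 of 10, so the opposite signs were gone. Among mates with at least 4 TRA UMIs the signs stayed opposite. The young difference was then -33.3 points, from 2 of 6 mates and 2 of 3, and the aged 50.0 points, from 10 of 20 and 0 of 3. The median UMI ratio of the alphas differed by -0.100 in the young and by 0.208 in the aged, and with both alphas at 2 or more UMIs both young medians were 1.5.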

How the results depend on the processing

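No paired analysis was possible because the groups compared had a single library each, so no replicate number could pair them. Of 156 alternative values, 143 stayed within the counting error of the reported value or, for the sign-flip tests, kept their sign. The smallest p of the sign-flip test is 0.13, so only a change of sign could set an alternative apart there. The mean difference in clonal share between members and cells with 1 alpha changed sign, to 5.13 points, with 1 count per clonotype, a count in which larger clonotypes qualify more easily. Thinned to 4 TRA UMIs, the share of cells with 2 alphas came to 12.9% (YTBI_aCD49d), 6.26% (ATBI_Isotype) and 6.83% (ATBI_aCD49d), above the intervals. The cut left out cells with fewer TRA UMIs, summed over both alphas, and so kept members more often than cells with 1 alpha. With 1 count per clonotype it was 6.50% in ATBI_Isotype and 7.31% in ATBI_aCD49d. Young minus aged kept its sign, with an interval that included 0 per clonotype in both treatments, at 5 or more TRB UMIs (3.97 points) and without second alphas found elsewhere (3.33) under Isotype, and with 2 UMIs per alpha under aCD49d (2.33). Requiring at least 3 cells, the clonal share of members was 5.71% in YTBI_aCD49d and 21.4% in ATBI_aCD49d. It was 18.8% in ATBI_aCD49d with 1 count per clonotype. Without the clonotype with most members, it was 8.33% in YTBI_Isotype and 21.2% in ATBI_aCD49d, the treatment differences turned in both ages, and 19.0% of clone mates showed both alphas. The second alpha had a median of 3 UMIs and rested on 1 UMI in 16 of 115 cells. How far depth set the shares was not tested beyond the UMI minimums above and the thinning, whose cut favours members.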
